A study of Homo sapiens with 31 samples.

Results

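Metallothioneins are small, cysteine-rich proteins that hold zinc and copper in the cell and also bind cadmium and other heavy metals. Their genes lie side by side on the long arm of chromosome 16. Zinc activates the transcription factor MTF1, which binds metal response elements in their promoters, and glucocorticoids and oxidants also raise several of them. In ovarian cancer the family is known for binding platinum drugs. The 8 genes described here, MT1A, MT1E, MT1F, MT1G, MT1H, MT1M, MT1X and MT2A, were chosen by name from the 19221 genes with deposited values.

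RNA-sequencing was performed on 31 libraries of cell lines that the study uses as models of ovarian cancer. The study itself calls the use of C13* somewhat improper given its origin. It also says that A2780 was reported as an unlikely high-grade serous line. The values were FPKM, which are fragments corrected for the length of a gene and the depth of a library. There were 8 libraries of A2780, the olaparib-sensitive parent line, and 8 of A2780 OlaR, which was raised from A2780 by culture in increasing olaparib, an inhibitor of PARP, until it was resistant. The other groups were the cisplatin-resistant line C13* with a control shRNA (shCON, 7 libraries) and C13* with a lentiviral shRNA against CEBPB, the gene for the transcription factor C/EBPβ (shCEBPB, 8 libraries). All cells were kept in the same medium with serum, and no group is labelled as given zinc, another metal, cisplatin or a glucocorticoid. The study calls the libraries biological replicates, the labels name no separate cultures or clones, and p-values measure the spread between these libraries.

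Not all libraries resembled the line on their label. Over the 19221 genes, the mean log2(FPKM + 1) of the libraries labelled A2780 OlaR correlated at r = 0.996 with that of shCON but at 0.856 with that of A2780, their labelled parent. The shCEBPB libraries correlated at 0.89 with shCON. Within each group, the lowest correlation was between 0.989 and 0.996. The squamous markers KRT5, KRT6A, TP63 and DSG3 together reached 1728 to 2088 FPKM in A2780 OlaR and 1478 to 1737 in shCON, but 0 to 0.204 in A2780 and shCEBPB. Of 4 ovarian markers, PAX8 and ESR1 had a mean of at least 1 FPKM in A2780 OlaR and shCON, WT1 and MUC16 in no group, and none of the 4 in A2780 or shCEBPB. Of 5 epithelial markers, KRT8 and KRT18 reached that mean in all groups, EPCAM in all but shCEBPB, and CDH1 and KRT19 only in A2780 OlaR and shCON. Of 4 mesenchymal markers, CDH2 reached it in all groups, FN1 in all but A2780, VIM in all but A2780 OlaR, and ZEB1 only in A2780 and shCEBPB. One shCON library (replicate 1) is labelled A2780 in its cell line field and C13* in its title. Groups are therefore given as labelled. The effects of olaparib or of the shRNA and a difference between cell lines cannot be told apart here. In bulk RNA, fewer cells of a type and less RNA per cell cannot be told apart either.

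CEBPB itself was lower in the libraries labelled shCEBPB, at a lowest, median and highest FPKM of 30.2, 49.5 and 58.7, than in shCON, at 75.2, 85.4 and 100.7. The log2 change was -0.87 ± 0.11 (SE, limma, adjusted p = 1.42e-06). In A2780 the 3 values were 85.6, 99.7 and 111.0 and in A2780 OlaR 97.1, 113.3 and 126.9. The groups overlapped in this second pair, and the log2 change was 0.16 ± 0.06 (limma, adjusted p = 0.0202). These changes are differences of the means of log2(FPKM + 1), a scale that understates the change of low genes.

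Only 4 of the 8 metallothioneins reached 1 FPKM in any library, and their coding sequences are shown because reads of so similar a family could be assigned to the wrong member. The sequences were read from hg38 with GENCODE 44, each over 3 exons on the plus strand, without the stop codon. MT2A spans chr16:56608584-56609497, MT1E chr16:56625475-56627112, MT1F chr16:56657731-56660698 and MT1X chr16:56682470-56684196. Capitals mark the 29 of 183 positions at which the 4 are not all alike.
MT2A: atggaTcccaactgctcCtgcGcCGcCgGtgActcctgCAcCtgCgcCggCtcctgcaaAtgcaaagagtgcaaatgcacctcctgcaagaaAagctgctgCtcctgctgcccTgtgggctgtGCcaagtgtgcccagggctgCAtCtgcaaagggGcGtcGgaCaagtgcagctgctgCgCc
MT1E: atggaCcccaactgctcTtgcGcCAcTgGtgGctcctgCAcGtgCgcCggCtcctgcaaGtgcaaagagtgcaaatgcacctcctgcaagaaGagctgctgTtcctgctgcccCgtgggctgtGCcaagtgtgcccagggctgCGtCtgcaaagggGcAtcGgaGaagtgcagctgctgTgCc
MT1F: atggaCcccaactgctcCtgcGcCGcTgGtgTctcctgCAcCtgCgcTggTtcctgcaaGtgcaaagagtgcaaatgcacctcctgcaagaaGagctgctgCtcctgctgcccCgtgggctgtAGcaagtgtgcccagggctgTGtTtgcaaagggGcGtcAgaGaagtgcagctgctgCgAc
MT1X: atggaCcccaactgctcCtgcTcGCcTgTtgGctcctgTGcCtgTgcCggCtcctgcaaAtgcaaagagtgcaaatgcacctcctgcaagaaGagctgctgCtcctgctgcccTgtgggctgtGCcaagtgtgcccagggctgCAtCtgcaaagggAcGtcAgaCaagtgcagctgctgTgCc

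The remaining 154 positions were shared by all 4. MT1X and MT2A differed at 14 of 183 bases (92.3% identity), MT1E and MT2A also at 14, and MT1F and MT1X at 21 (88.5%). Reads were 150 bases long. Of all 150-base windows of the MT2A, MT1E and MT1F transcripts, 0 were shared with a transcript of another gene, and for MT1X 6.67% were, all with ENSG00000259827, a gene on the same strand that overlaps it by 165 exonic bases. At 75 bases the shared part was 36.1% for MT1X, with MT1G and the pseudogene MT1XP1 among the genes that share them, and at most 0.794% for the other 3. MT1X is therefore the least certain of the 4 in how reads were assigned. Only exact matches of a window were counted, so these shares do not exclude misassigned reads for the other 3.

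MT2A, the main human metallothionein in most tissues, was the highest member in every group. Its lowest, median and highest FPKM were 133.7, 167.7 and 182.5 in A2780, and 370.8, 433.7 and 542.0 in the libraries labelled A2780 OlaR. In shCON they were 854.0, 1042 and 1127, and in shCEBPB 269.7, 330.8 and 392.6. Thus A2780 was lowest and shCON highest, neither overlapping any other group, while A2780 OlaR and shCEBPB overlapped. The means were 165.0 ± 16.4 (SD, n = 8), 444.4 ± 70.3 (n = 8), 1011 ± 110 (n = 7) and 329.6 ± 47.1 (n = 8). By rank among all genes, MT2A stood at positions 49 to 71 in shCON and 305 to 470 in A2780. From the steps in which low FPKM rise, 2331 to 21446 reads per library lay behind these MT2A values, so counting error was small beside the spread between libraries.

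MT1X was the only other member found in all 31 libraries. Its lowest, median and highest FPKM were 39.4, 47.8 and 61.3 in A2780, and 18.7, 24.6 and 36.7 in A2780 OlaR. In shCON they were 44.9, 56.3 and 68.3, and in shCEBPB 43.3, 61.5 and 87.3. A2780 OlaR therefore lay below every other library, and the other 3 groups overlapped. The means were 48.7 ± 6.51 (SD, n = 8) in A2780, 27.3 ± 7.23 (n = 8) in A2780 OlaR, 55.1 ± 9.83 (n = 7) in shCON and 62.5 ± 17.5 (n = 8) in shCEBPB.

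MT1F was present in 2 groups and all but absent from the others. In A2780 OlaR its lowest, median and highest FPKM were 5.82, 7.52 and 8.26, and in shCON 10.0, 12.9 and 15.6. In A2780 it was at 0 in 5 of 8 libraries and reached at most 0.287 FPKM, and in shCEBPB it was at 0 in 5 of 8 libraries and reached at most 0.118. These last values stood for 10 reads in all A2780 libraries and 5 in all shCEBPB libraries, against 1058 in A2780 OlaR and 1689 in shCON. The groups with and without MT1F were the groups with and without the squamous markers given above, whose part in MT1F was not tested.

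MT1E was found in 1 group. It was listed at 0 in every library of A2780, A2780 OlaR and shCON, while its lowest, median and highest FPKM in shCEBPB were 36.3, 49.2 and 61.9 (mean 48.8 ± 8.15, SD, n = 8). Between 713 and 1300 reads per library lay behind these values. A count of 0 allows up to 3 reads in a library, which is 0.123 to 0.176 FPKM in the 3 groups without it, so the mean of MT1E was at least 282-fold higher in shCEBPB than in shCON, and its lowest shCEBPB library at least 209-fold. The bound on the mean was 277-fold against A2780 and 283-fold against A2780 OlaR. Since 12 of the 14 low values of MT1F and MT1B stood for even read numbers, a fragment may have counted as 2 reads, and with the floor doubled for this the bound against shCON would be 141-fold. Floors of this kind cover counting error only.

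The 4 other members were not expressed at a measurable level. MT1G and MT1M were at 0 in all 31 libraries. MT1H was at 0.0525 FPKM in 1 shCON library and MT1A at 0.183 in 1 A2780 library and 0.115 in 1 shCEBPB library, with 0 in all others. At this depth a low level of these genes would not be detected.

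**Figure D1:**
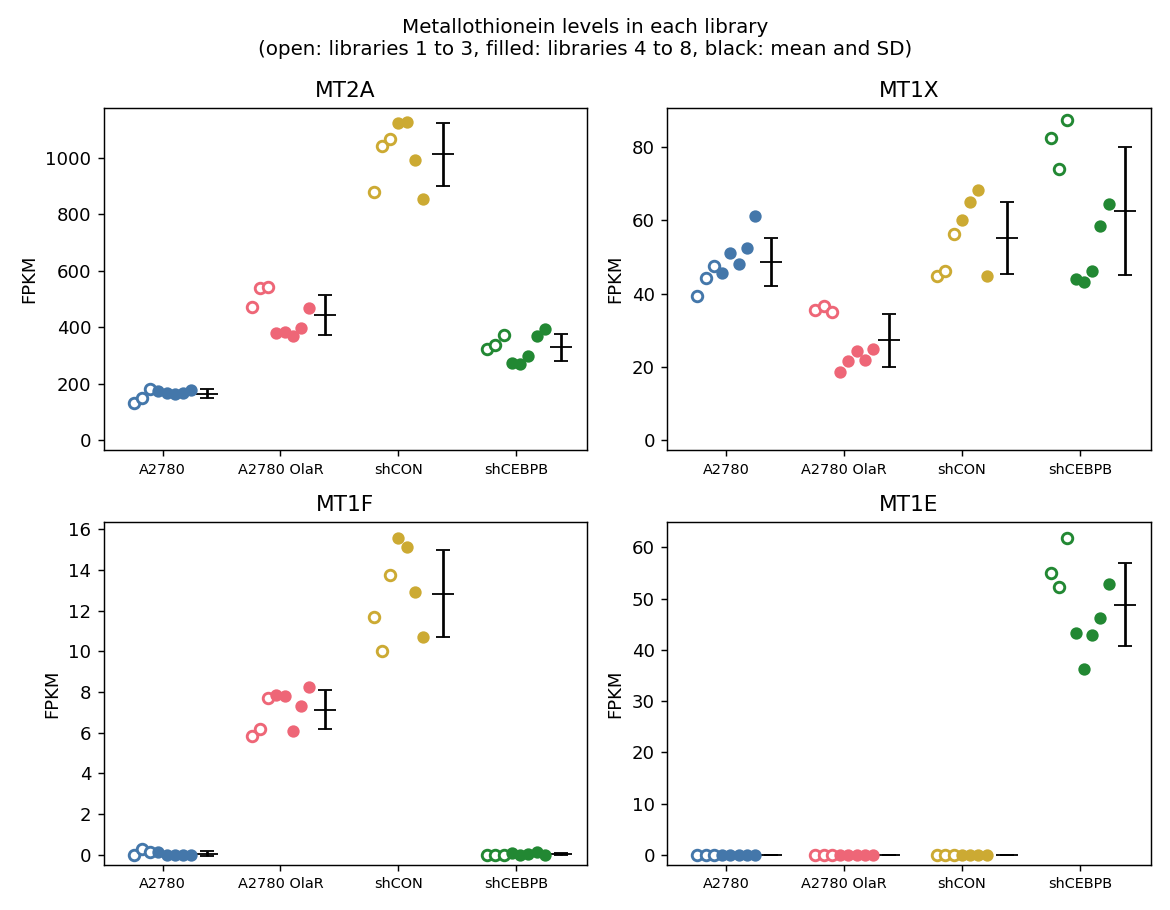
FPKM of MT2A, MT1X, MT1F and MT1E (vertical axes, linear) in every library of A2780, A2780 OlaR, shCON and shCEBPB, with the mean and SD of each group in black and library numbers 1 to 3 as open points. MT2A is highest in the 7 shCON libraries (854.0 to 1127 FPKM), MT1F lies above 5 FPKM only in A2780 OlaR and shCON, and MT1E lies above 0 only in shCEBPB.

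The pattern along the chromosome was not one of neighbours moving together. In the order MT4, MT3, MT2A, MT1E, MT1M, MT1A, MT1B, MT1F, MT1G, MT1H and MT1X, expressed and silent genes were interspersed. MT4, known from stratified epithelia and at the start of the cluster, resembled MT1E. Its FPKM was 3.11 to 19.6 (38 to 225 reads) in shCEBPB and 0 in all other libraries except 1 shCON library at 0.142. MT1B was highest in A2780 (1.38 to 3.94 FPKM) and lower in shCON (0.405 to 1.94), and it reached at most 0.259 in A2780 OlaR and 0.149 in shCEBPB. MT1B and MT1F, which are next to each other, thus had opposite orders in A2780 and A2780 OlaR. The values of MT1B stood for only 22 to 62 reads per library in A2780 and 0 to 4 in A2780 OlaR. MT1B also overlaps ENSG00000259923, on the same strand, by 120 exonic bases, so its reads are not certain to be its own. MT3, best known from the brain, was at 0 in all libraries but 1 shCEBPB library at 0.166. TESMIN, which lies on another chromosome and shares only metallothionein-like motifs, had a mean of 5.72 FPKM in A2780, 7.93 in A2780 OlaR, 8.24 in shCON and 2.84 in shCEBPB.

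**Figure D2:**
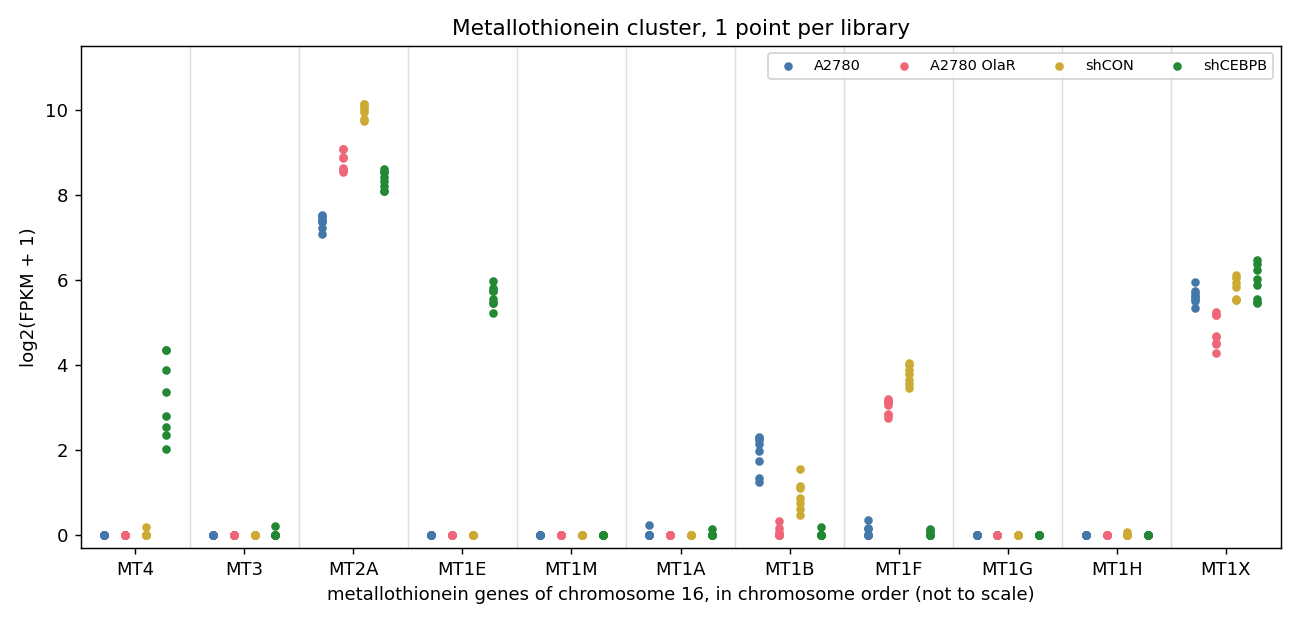
log2(FPKM + 1) of the 11 protein-coding metallothionein genes of chromosome 16, in chromosome order from left to right with no scale of distance, with 1 point per library and colours for the 4 groups. Expressed and silent genes are interspersed, MT2A is highest in each group, and MT4 and MT1E rise above 1 FPKM in shCEBPB alone.

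Promoter sequences of 3 members, MT2A, MT1X and MT1H, were at hand (RefSeq, GRCh38.p14, plus strand). They are shown because MT2A and MT1X were expressed in all libraries and MT1H in almost none. Each run is the 250 bases before the start of the gene, chr16:56608334-56608583 for MT2A, chr16:56682220-56682469 for MT1X and chr16:56669564-56669813 for MT1H. Capitals mark the core of the metal response element, TGCACNC or TGCGCNC on either strand.
MT2A: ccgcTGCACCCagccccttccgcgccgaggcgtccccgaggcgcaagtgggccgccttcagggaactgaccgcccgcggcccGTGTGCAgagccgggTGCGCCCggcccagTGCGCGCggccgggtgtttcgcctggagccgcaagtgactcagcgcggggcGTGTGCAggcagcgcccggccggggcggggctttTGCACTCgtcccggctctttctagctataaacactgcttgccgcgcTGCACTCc
MT1X: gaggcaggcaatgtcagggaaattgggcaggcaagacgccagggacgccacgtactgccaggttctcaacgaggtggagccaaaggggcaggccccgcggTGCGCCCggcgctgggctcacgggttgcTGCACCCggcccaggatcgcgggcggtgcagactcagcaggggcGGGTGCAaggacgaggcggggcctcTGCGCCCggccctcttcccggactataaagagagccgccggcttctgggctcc
MT1H: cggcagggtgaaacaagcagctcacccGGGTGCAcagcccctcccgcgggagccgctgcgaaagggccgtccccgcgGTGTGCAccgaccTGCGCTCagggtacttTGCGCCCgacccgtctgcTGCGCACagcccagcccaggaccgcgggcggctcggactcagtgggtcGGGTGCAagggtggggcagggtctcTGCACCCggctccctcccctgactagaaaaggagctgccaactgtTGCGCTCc

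The core occurred 7 times before MT2A, 4 times before MT1X and 8 times before MT1H. Of 35116 promoters of this length, 24.8% held it at least once and 1.58% at least 3 times. MT1H, the member with the most cores of the 3, was thus the one without expression, and matches of this kind are a description and not sites of binding. One match before MT1X overlapped a GC box, GGGCGG, which occurred 2 times before MT2A and MT1X and once before MT1H, and in 42.6% of all promoters. The letters TTGCNNAA, the outer bases of a C/EBP motif, were found in 9.05% of all promoters and in none of these 3 windows, which says nothing of C/EBPβ elsewhere in these genes.

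The knockdown comparison sets the libraries labelled shCEBPB against shCON. An effect of the shRNA cannot be told apart from a difference between lines. From here on, a change with the shRNA, a rise or a fall names only a difference between labelled groups. MT2A in shCEBPB was at 0.326 of its shCON mean, MT1F was almost absent and MT1E was present, whereas MT1X did not pass the test. Of the 8 members, MT2A, MT1X, MT1E and MT1F passed the filter on low FPKM (at least 1 in at least 7 libraries). The filter kept MT1E and MT1F only through the group in which they were high, so members of this kind had to differ, and their calls in the fit across all genes are not counted here or in the comparisons that follow. Among all 12006 genes tested, 84.7% changed (adjusted p under 0.05), 38.9% higher and 45.7% lower, so a changed gene was the common case here.

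The log2 change of MT2A was -1.62 ± 0.09 (SE, limma, adjusted p = 7.02e-12) and that of MT1F was -3.73 ± 0.08. For MT1E, with no reads in shCON, the fitted value is no bound. None of these 3 overlapped between the groups. An exact permutation test over the libraries (two-sided), which uses no filter, gave p = 0.000155 for each, the smallest it can give. Any gene without overlap gets this p. The share of all genes without overlap was not computed, here or for the comparisons that follow. Lack of overlap therefore does not set a member apart from other genes. For MT1X the log2 change was 0.15 ± 0.16 (limma, adjusted p = 0.379, exact permutation p = 0.407), and the libraries overlapped.

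The olaparib comparison sets the libraries labelled A2780 OlaR against those of A2780, their labelled parent. In the libraries labelled A2780 OlaR, MT2A was 2.69-fold higher than in A2780, MT1F rose from almost nothing to 7.14 ± 0.954 FPKM (SD, n = 8), and MT1X fell to 0.561 of its A2780 mean. MT1E was at 0 in both groups, and MT1F passed the filter only through A2780 OlaR. Of the 12458 genes tested, 89.8% changed, 40.1% higher and 49.7% lower. The log2 changes were 1.42 ± 0.09 for MT2A (SE, limma, adjusted p = 5.54e-12), 2.93 ± 0.07 for MT1F and -0.84 ± 0.13 for MT1X (limma, adjusted p = 5.05e-06). The libraries did not overlap for any of the 3 (exact permutation p = 0.000155 for each).

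MT2A and MT1F, lower in shCEBPB than in shCON, were thus the members that were higher in A2780 OlaR than in A2780. The difference between the 2 contrasts, tested in a model of all 4 groups, was -3.03 ± 0.13 for MT2A (limma, adjusted p = 9.21e-21), -6.66 ± 0.11 for MT1F and 0.99 ± 0.21 for MT1X (adjusted p = 7.36e-05, limma). MT1E, at 0 in 3 of the 4 groups, adds nothing to its single contrast here. MT1F, near 0 in A2780 and shCEBPB, passed the filter only through the other 2 groups, so its difference was fixed in advance. In that model 89.1% of 12967 genes differed between the contrasts. The groups shCON and A2780 OlaR, alike at r = 0.996, also lie on opposite sides of the 2 contrasts. Opposite signs therefore do not set a member apart.

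The 2 groups that were most alike, shCON and A2780 OlaR, still differed in all 3 members that both expressed. MT2A was 2.27-fold, MT1X 2.01-fold and MT1F 1.80-fold higher in shCON, with no overlap of libraries. The log2 changes were 1.19 ± 0.09 (SE, limma, adjusted p = 1.44e-08), 1.01 ± 0.14 (limma, adjusted p = 2.66e-05) and 0.76 ± 0.09 (limma, adjusted p = 4.999e-06). The exact permutation p was 0.000155 for each, as for any gene without overlap. How many of all genes had no overlap in this pair was not computed. Fewer genes changed in this pair than in the others, 42.2% of 11547, with 22.9% higher and 19.3% lower.

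The 2 groups without squamous markers, shCEBPB and A2780, differed in MT1E and MT2A. MT2A was 1.997-fold higher in shCEBPB, with a log2 change of 0.99 ± 0.08 (SE, limma, adjusted p = 1.41e-09) and no overlap. MT1X passed the test by little, with a log2 change of 0.31 ± 0.14 (limma, adjusted p = 0.0426) and overlapping libraries (exact permutation p = 0.0648). The call was lost in libraries 4 to 8 alone and under other scalings. MT1F could not be compared by limma, as it passed the filter in neither group, and its exact permutation p was 0.484. MT1E passed the filter only through shCEBPB. Of 12234 genes tested, 88.9% changed, 37.4% higher and 51.5% lower. The median log2 change of all genes was -0.18 in this pair.

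**Figure D3:**
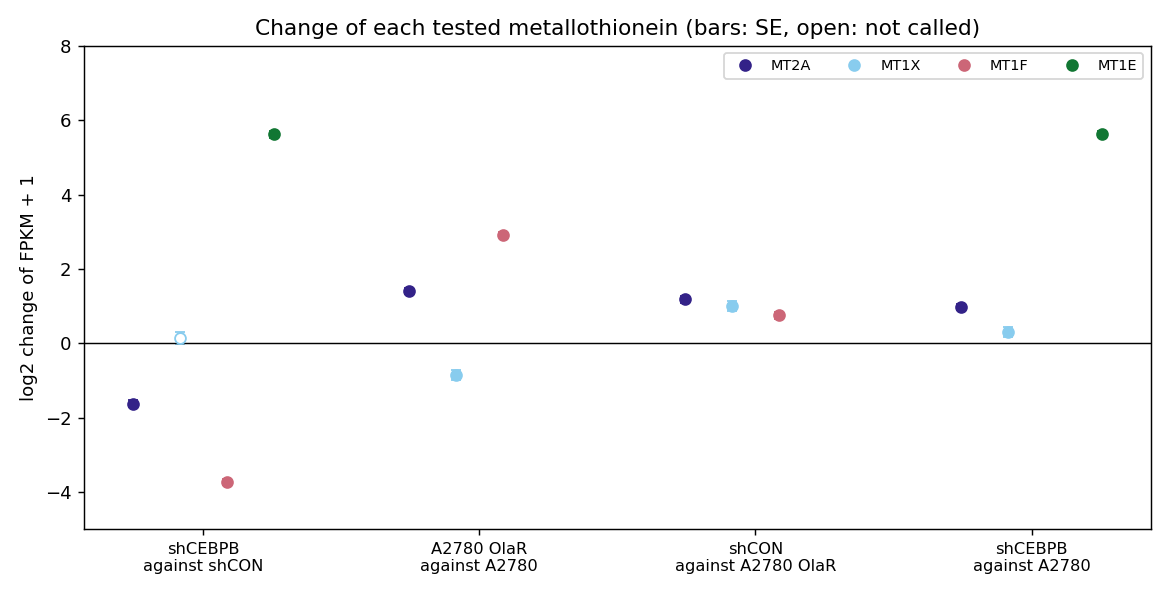
log2 change of FPKM + 1 (vertical axis) of MT2A, MT1X, MT1F and MT1E in the 4 comparisons, first group minus second, with SE bars that are often smaller than the points, and open points where limma did not call a change. MT1E has a value only where shCEBPB takes part, against groups with no reads, so its height depends on the 1 added to each FPKM. MT2A and MT1F point down for shCEBPB against shCON (-1.62 and -3.73) and up for A2780 OlaR against A2780 (1.42 and 2.93).

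The libraries carry a number in their codes, and numbers 1 to 3 stood apart from 4 to 8 for some members. MT1X in A2780 OlaR was 35.1 to 36.7 FPKM in libraries 1 to 3 and 18.7 to 24.8 in libraries 4 to 8. In shCEBPB it was 73.9 to 87.3 against 43.3 to 64.5. The 2 ranges did not overlap in these groups, while in A2780 (39.4 to 47.7 against 45.8 to 61.3) and in shCON (44.9 to 56.3 against 44.9 to 68.3) they did. MT2A was likewise higher in libraries 1 to 3 of A2780 OlaR, at 472.3 to 542.0 FPKM against 370.8 to 468.4, and MT4 was lower in libraries 1 to 3 of shCEBPB, at 3.11 to 4.86 against 5.96 to 19.6.

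MT1X therefore differed between shCEBPB and shCON in 1 range and not in the other. The test of a difference between the ranges was added after the data were seen, so its p-values only describe these libraries. Its log2 change from shCON to shCEBPB was 0.72 in libraries 1 to 3 (limma, adjusted p = 7.74e-05) and -0.21 in libraries 4 to 8 (limma, adjusted p = 0.149). The difference between the ranges was 0.93 ± 0.20 (SE, limma, adjusted p = 0.00191), in a fit where 47.5% of all genes differed between the ranges. In A2780 OlaR against A2780 the MT1X change was -0.28 in libraries 1 to 3 (limma, adjusted p = 0.00161) and -1.18 in libraries 4 to 8 (limma, adjusted p = 1.97e-09), a difference of 0.90 ± 0.13 (limma, adjusted p = 3.48e-05) where 60.7% of genes differed. In shCEBPB against A2780 the change of MT1X was 0.88 and -0.02 in the 2 ranges (difference 0.90, limma, adjusted p = 0.000234, with 58.6% of genes differing). In shCON against A2780 OlaR it was 0.44 and 1.37 (difference -0.93, limma, adjusted p = 0.00108, with 50.9% of genes differing).

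MT2A kept its direction and its call in both ranges of all 4 comparisons. Its fall with the shRNA was -1.52 and -1.68 in the 2 ranges (difference 0.16, limma, adjusted p = 0.476), and its rise in A2780 OlaR was 1.74 and 1.22 (difference 0.52, limma, adjusted p = 0.00112). The change of MT1F with the shRNA was -3.67 and -3.78, and the difference between the ranges did not pass the test (limma, adjusted p = 0.561). What sets the library numbers apart was not tested, and the labels give no batch.

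The makeup of the family differed as well. The summed FPKM of the 8 genes was 213.8 ± 21.4 (SD, n = 8) in A2780, 478.9 ± 76.6 (n = 8) in A2780 OlaR, 1079 ± 118 (n = 7) in shCON and 441.0 ± 67.1 (n = 8) in shCEBPB. MT2A made up 77.2% of the sum in A2780 and 74.9% in shCEBPB, but 92.8% in A2780 OlaR and 93.7% in shCON (means over libraries). MT1X held 22.8% in A2780, 14.01% in shCEBPB, 5.65% in A2780 OlaR and 5.10% in shCON. MT1E supplied 11.1% in shCEBPB, and MT1F 1.53% in A2780 OlaR and 1.19% in shCON. The mean sums of shCEBPB and A2780 OlaR, 441.0 and 478.9, lay closer to each other than the means of MT2A alone, 329.6 and 444.4.

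**Figure D4:**
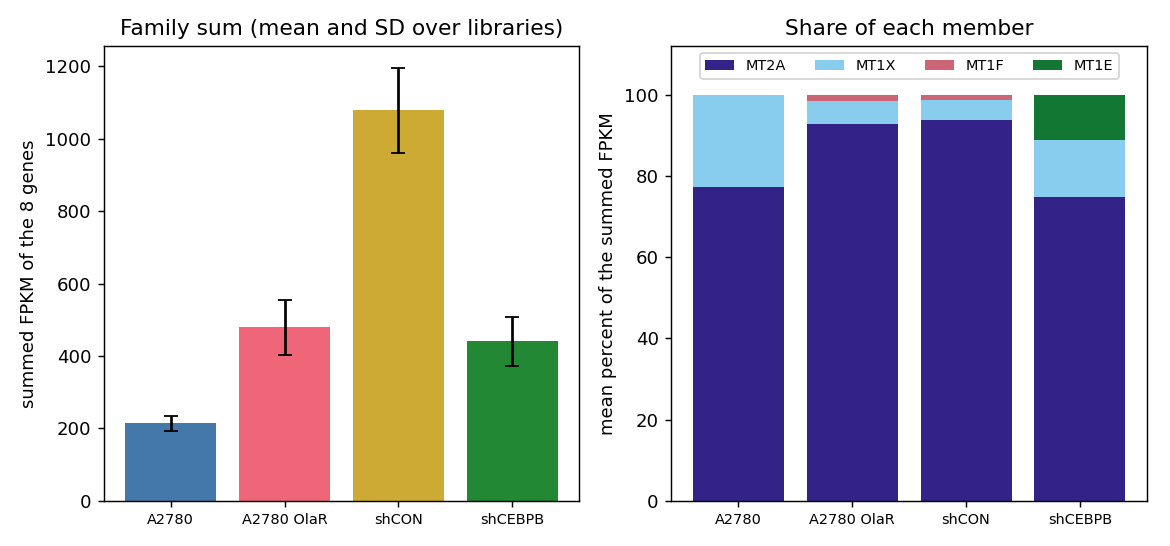
Left, the summed FPKM of the 8 metallothioneins (vertical axis from 0, bars are means over libraries with SD) in the 4 groups. Right, the mean percent of that sum held by MT2A, MT1X, MT1F and MT1E. The sum is highest in shCON (1079) and lowest in A2780 (213.8), and MT2A holds most of it in A2780 OlaR (92.8%) and shCON (93.7%).

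Transcription factors that act on metallothionein promoters were compared next. MTF1, the zinc sensor that binds metal response elements, was low in all groups, at 2.84 to 3.21 FPKM in shCEBPB, 4.11 to 4.997 in shCON, 3.77 to 4.51 in A2780 OlaR and 4.55 to 5.04 in A2780. It fell by 0.53 on the log2 scale with the shRNA (limma, adjusted p = 2.45e-09) and by 0.15 in A2780 OlaR (limma, adjusted p = 0.00137). NR3C1, the glucocorticoid receptor, was at 0.173 to 0.444 FPKM in A2780, where MT2A was lowest, and at 14.6 to 18.4 in A2780 OlaR, 13.9 to 16.2 in shCON and 18.1 to 27.2 in shCEBPB. Its log2 change was 0.50 with the shRNA (limma, adjusted p = 1.72e-05) and 3.75 in A2780 OlaR (limma, adjusted p = 2.30e-22). The mean of NR3C1 was highest in shCEBPB, whereas MT2A was highest in shCON, and a link between them was not tested. Of 8 listed regulators, 8 changed with the shRNA (3 higher, 5 lower, median log2 change -0.18 against -0.07 for all genes) and 8 in A2780 OlaR (4 higher, 4 lower, median 0.01 against -0.12), where 84.7% and 89.8% of all genes changed, so these counts lay near the background. Besides CEBPB and NR3C1, the largest changes were in USF2 with the shRNA (0.57), and in SP1 (0.33), USF1 (-0.55) and USF2 (-0.49) in A2780 OlaR, all general activators of transcription.

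Zinc transporters set the supply of the metal that metallothioneins hold. Of 11 tested importers of the SLC39 family, 7 changed with the shRNA (5 higher, 2 lower, median 0.12 on the log2 scale) and 10 in A2780 OlaR (3 higher, 7 lower, median -0.58). The first share lay below the 84.7% of all genes that changed with the shRNA and the second near the 89.8% that changed in A2780 OlaR. SLC39A14, which carries zinc, iron and manganese into the cell, was at a mean of 111.8 FPKM in A2780, 62.3 in shCEBPB, 23.5 in shCON and 21.3 in A2780 OlaR. It was thus highest where MT2A was lowest, but a link was not tested. Its log2 change was 1.37 with the shRNA (limma, adjusted p = 4.65e-17) and -2.34 in A2780 OlaR (limma, adjusted p = 7.40e-23). The next rise with the shRNA was in SLC39A10 (0.56) and the falls were in SLC39A6 (-1.07) and SLC39A11 (-0.43). In A2780 OlaR, SLC39A11 (0.92) and SLC39A6 (0.67) rose most, and SLC39A8 fell (-2.10) beside SLC39A14.

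Of the exporters, 6 of 6 tested changed with the shRNA (2 higher, 4 lower, median -0.37) and 7 of 8 in A2780 OlaR (1 higher, 6 lower, median -0.52), near the shares of all genes (84.7% and 89.8%). SLC30A1, the exporter at the cell surface and, like the metallothioneins, a target of MTF1, had a mean of 7.57 FPKM in A2780, 11.8 in A2780 OlaR, 15.6 in shCON and 20.8 in shCEBPB. It rose with the shRNA (0.39, limma, adjusted p = 0.000658), where MT2A fell and the libraries overlapped, and in A2780 OlaR (0.58, limma, adjusted p = 5.03e-09), where MT2A rose. The difference between these 2 contrasts was -0.20 ± 0.11 (limma, adjusted p = 0.078). SLC30A5 also rose with the shRNA (0.33), and SLC30A4 (-1.20) and SLC30A9 (-0.72) fell. In A2780 OlaR the largest falls were in SLC30A8 (-3.37), the zinc transporter of insulin granules, and SLC30A3 (-1.33).

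**Figure D5:**
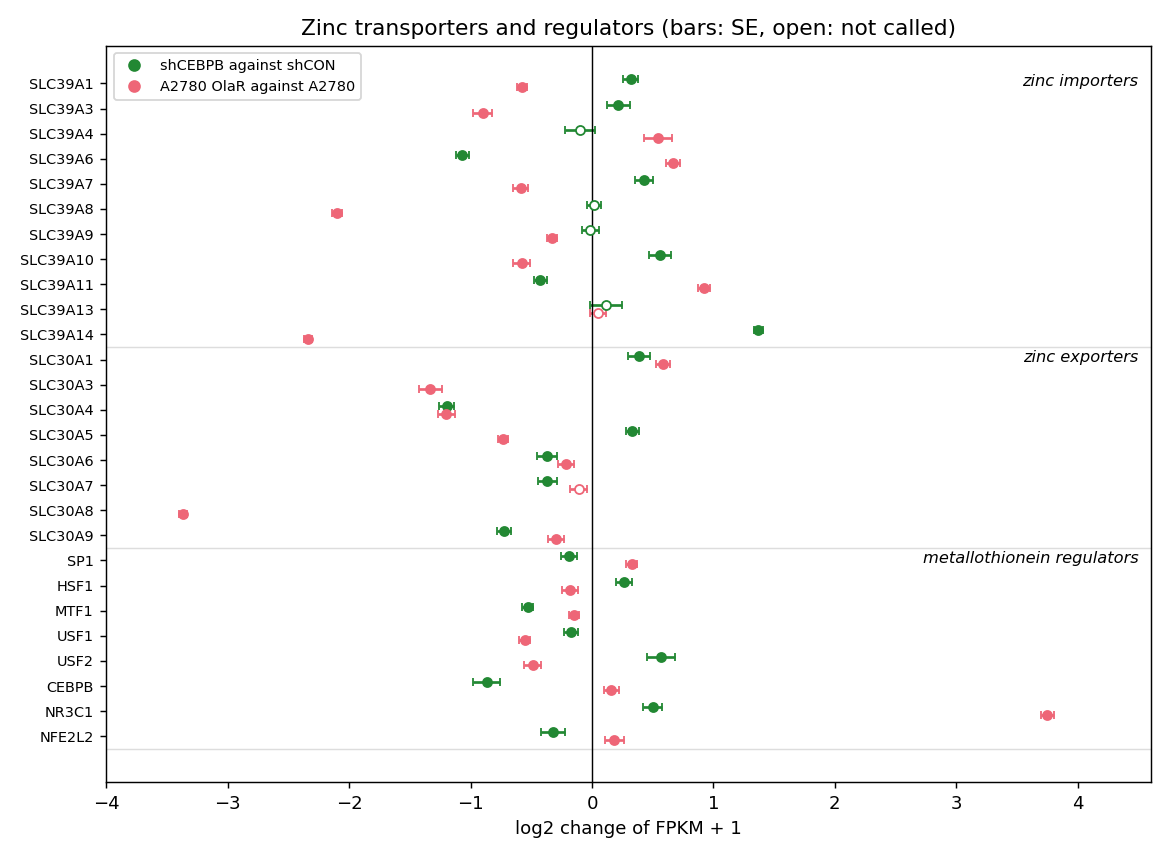
log2 change of FPKM + 1 (horizontal axis) of zinc importers, zinc exporters and metallothionein regulators, with SE bars and open points where limma did not call a change, for shCEBPB against shCON (green) and A2780 OlaR against A2780 (red). SLC39A14 lies at 1.37 and -2.34, SLC30A1 at 0.39 and 0.58, and NR3C1 at 0.50 and 3.75.

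Other genes tied to metals and metallothionein induction showed no single direction. A list of 9 stress genes held genes that metals or heat induce. Of these, 8 changed with the shRNA (3 higher, 5 lower, median -0.59), led by HSPA1A (1.45), TXNRD1 (0.39), GCLC (-1.71) and DNAJB1 (-1.37). In A2780 OlaR all 9 changed (7 higher, 2 lower, median 0.81), led by HSPA1A (2.70), GCLC (2.02), HMOX1 (-1.94) and TXNRD1 (-1.03). HSPA1A has a near-identical copy, HSPA1B, and reads could be split between them. HSPA1B fell with the shRNA (-0.59), against the rise of HSPA1A, and rose in A2780 OlaR (2.02). Of 6 tested glucocorticoid-induced genes, 6 changed with the shRNA (4 higher, 2 lower, median 0.97), with SGK1 (3.37), DUSP1 (1.95), PER1 (-1.01) and FKBP5 (-0.31) at the ends. In A2780 OlaR, 5 did (2 higher, 3 lower, median -0.31), with SGK1 (1.80), PER1 (0.31), TSC22D3 (-3.01) and KLF9 (-1.12). The counts of both lists lay near the shares of all genes, 84.7% and 89.8%.

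For copper, which metallothioneins also bind, 6 of 9 listed genes changed with the shRNA (2 higher, 4 lower, median -0.15). The reductase STEAP3 (1.28) and the exporter ATP7A (0.20) rose, and the exporter ATP7B (-1.34) and SLC31A2 (-1.26) fell. In A2780 OlaR 7 of 9 changed (3 higher, 4 lower, median 0.12), with STEAP3 (1.26) and SOD1 (0.39) higher and SLC31A1 (-2.08) and COX17 (-0.40) lower. Both counts lay below the shares of all genes, 84.7% and 89.8%. SLC31A1, the copper importer through which cisplatin can also enter cells, averaged 56.3 ± 0.707 FPKM (SD, n = 8) in A2780, with means of 10.6 to 13.3 in the other 3 groups.

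Genes on either side of the metallothionein cluster were compared as well. With the shRNA, 13 of 17 tested neighbours changed (6 higher, 7 lower), with a median of -0.06 against -0.07 for all genes, and DOK4 (2.25), PLLP (1.95), ARL2BP (-1.48) and RSPRY1 (-0.85) at the ends. In A2780 OlaR all 17 changed (7 higher, 10 lower), with a median of -0.22 against -0.12, and BBS2 (0.77), NUDT21 (0.73), HERPUD1 (-1.65) and PLLP (-1.53) at the ends. These shares lay near those of all genes, and the neighbours did not share the direction of MT2A or MT1F as a group.

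The genes whose levels over the 31 libraries were most like those of each expressed member are given as a description, since the libraries fall into 4 groups and any gene with the same group means scores high. For MT2A they were MICAL2 (Pearson's r = 0.978), DAPP1 (0.973) and KRT34 (0.972). For MT1F they were NOS1 (0.997), WNT7A (0.995) and TMEM40 (0.995), and for MT1X ZC3H8 (0.935), PPID (0.919) and UPF3B (0.915). RNF212, SMIM10 and PASD1 matched MT1E most closely, with means of 16.3, 49.4 and 21.6 FPKM in shCEBPB and at most 0.00186 in any other group. Between members, r was 0.845 for MT2A and MT1F, 0.0573 for MT2A and MT1X, -0.136 for MT2A and MT1E, 0.467 for MT1E and MT1X, -0.387 for MT1F and MT1X and -0.569 for MT1E and MT1F. The highest of the 6 was that of MT2A and MT1F.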

How the data were processed

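RNA of 31 cell line libraries in 4 groups was sequenced. As the methods and the labels' processing notes say, 150-base paired reads were checked with FastQC, aligned by TopHat to hg38 and tallied for each gene by HTSeq, and the authors tested counts with edgeR. The authors deposited FPKM in 1 table. The tool and annotation behind the FPKM, and whether strand was used, are not given in the sources used here. Values of 19221 genes were used, after 4 rows with 2 repeated symbols were left out.

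FPKM are not counts, so log2(FPKM + 1) was tested with limma 3.58.1 in R 4.3.3 (lmFit, eBayes with trend, two-sided, Benjamini-Hochberg over all genes tested, called at an adjusted p under 0.05). Each comparison used its own 2 groups and covered genes that reached 1 FPKM in a number of libraries equal to the smaller group. For single members, the difference of mean log2(FPKM + 1) was also put to an exact permutation test. On simulated data for shCEBPB against shCON (12006 genes), limma found 99.5% of 200 genes changed by 1 on the log2 scale, and 2.45% of its calls were false. For A2780 OlaR against A2780 (12458 genes) these shares were 99.5% and 9.13%. The last share exceeds what an adjusted p under 0.05 aims at. The simulated noise was independent between genes and only 200 genes changed, whereas most genes were called in these 2 comparisons. The false shares therefore do not carry over to them.

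FPKM give no read totals. Low FPKM rise in steps of whole reads, from which the relative depth of the libraries (0.865 to 1.23) and the reads behind each metallothionein value were computed, with a floor of 3 reads per library. This step, the doubled floor and the test of the difference between libraries 1 to 3 and 4 to 8 were added after seeing the data. Same-numbered replicates were not treated as pairs, since only 1 or 2 of 7 or 8 pairs in a comparison deviated together (correlation over 0.1). The mean correlation of same-numbered pairs was negative in each comparison, from -0.261 to -0.148, against 0.0234 to 0.0416 for other numbers. On average they thus deviated in opposite directions, and the cause was not tested. Replicates were numbered here, and in the replicate block, by their titles. By library code, shCON replicates 6 and 7 are numbers 7 and 8, so their pairs differ from those of the codes.

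The genes named are the 8 members, MTF1, NR3C1, SLC30A1 and CEBPB, the markers, the 3 genes most like each expressed member and, from each list, the 2 largest rises and falls called in each of the study's 2 comparisons. Members and lists were chosen with earlier results of these data known. Positions and transcripts came from GENCODE 44, with the 3-exon transcript for MT1E. The RefSeq promoter table matched 3 of 8 members, without MT1A, MT1E, MT1F, MT1G and MT1M. Alternatives were the replicate block, each library range alone, 1 model for all 4 groups, quantile normalization, a common sum of FPKM, other filters (none, 5 FPKM), smaller pseudocounts (0.1, 0.01), leaving out shCON replicate 1, and an adjusted p under 0.01. Tables were handled in Python 3.11.15 with pandas 2.3.3, the exact tests enumerated every arrangement of the libraries in numpy 2.4.6, and plots were drawn in matplotlib 3.10.9.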

Additional observations from a re-analysis of the deposited data

Results flagged for a closer look

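For some members, the change under the same comparison differed between libraries numbered 1 to 3 and libraries numbered 4 to 8. The difference itself was tested (limma, all genes tested). This test was added after the data were seen, so its p-values only describe these libraries. For MT1X the log2 change in the first range exceeded that in the second by 0.93 in shCEBPB against shCON (adjusted p = 0.00191) and by 0.90 in A2780 OlaR against A2780 (adjusted p = 3.48e-05). For MT2A the difference was 0.52 in A2780 OlaR against A2780 (adjusted p = 0.00112), and for MT1E it was 0.35 in shCEBPB against shCON (adjusted p = 0.0321). In these comparisons 47.5% and 60.7% of all genes differed in the same way, so the members are no exception, and the cause was not tested.

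MTF1 had a single library far from the rest of its group, shCON replicate 7 at 4.11 FPKM, where the next lowest of that group was at 4.71. Among 33 groups of libraries looked at in this way it was the 1 found, and chance alone would give about 1 in 20, or 1.65 of the 33.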

How the results depend on the processing

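The calls of MT2A, MT1F and MT1E kept their direction and their side of the threshold in every comparison and under every alternative in which they could be tested, which for MT1F and MT1E follows from their absence in 1 group in all comparisons but shCON against A2780 OlaR. The counts of genes called stayed within 1.5 times. MT1X was the exception, and its call in shCEBPB against A2780 was lost under 6 alternatives. In shCEBPB against shCON its log2 change was -0.21 in libraries 4 to 8 alone (limma, adjusted p = 0.149). In shCEBPB against A2780 it was -0.0233 there (adjusted p = 0.838, limma), and its call was lost with no filter (adjusted p = 0.0585), a common sum (0.27, adjusted p = 0.0976) and quantile normalization (0.20, adjusted p = 0.212, all limma), which moved the median of all genes from -0.18 to -0.04. The cause was not tested. Fitted changes against groups near 0 depend on the pseudocount: at 0.01 the log2 change of MT1E against shCON was 12.2, that of MT1F -9.09 with the shRNA and 7.92 in A2780 OlaR.

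Neither the labels nor the methods say that same-numbered replicates were made together, so the replicate block is an alternative only. With the replicate block limma called 9885 genes in shCEBPB against shCON (10166 without), 10960 in A2780 OlaR against A2780 (11190), 3436 in shCON against A2780 OlaR (4876) and 10655 in shCEBPB against A2780 (10877). MT1X in shCEBPB against A2780 lost its call under the block (0.31, adjusted p = 0.0607, limma), and no other member did.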
